A study of Mus musculus with 16 samples.

Results

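The G2 and mitosis genes are 40 genes whose products carry a cell through the end of interphase and through division. They were taken as a list of gene symbols, and each gene was read from 1 probe set, the set of short probes annotated to that gene and no other that had the highest mean over the 16 arrays. All 40 had such a probe set, of 18193 genes in all. RNA came from CT26 cells, a murine colon carcinoma line of the BALB/c strain, stably transfected with the empty pU6-m3 vector (control) or with that vector carrying a short hairpin against Sep15 (shSep15), against TR1 (shTR1) or against both (shTR1/shSep15). Sep15 and TR1 are selenoproteins, proteins that contain the amino acid selenocysteine, and TR1 is thioredoxin reductase 1. Each of the 4 lines was measured on 4 Affymetrix arrays made from different RNA samples. Nothing states that these came from separate cultures or transfections, so p-values measure only the spread between these samples.

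A cell enters mitosis when Cdk1, bound to a cyclin, is switched on by Cdc25 phosphatases. The Plk and Aurora kinases, the kinesins and the kinetochore proteins then build the spindle and attach the chromosomes to it, and the spindle checkpoint holds the cell back until all are attached. Many of these genes are transcribed together late in the cycle, through promoters that hold CCAAT boxes and a cell cycle homology region, so their mRNA is high in dividing cultures and low in arrested ones. In a bulk culture, fewer cells in G2 and mitosis and less mRNA per such cell cannot be told apart.

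The hairpin inserts are shown because they define the lines. Each is the stretch copied from the mouse cDNA of its target, and the shTR1/shSep15 cells carry both.
Sep15 hairpin: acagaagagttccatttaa
TR1 hairpin: atcgctctgacaagcttattag

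The promoters are shown because the members share letters there that the list did not use. Of the 40 members, 32 have a window in the RefSeq promoter table (GRCm38.p6), which runs from 250 bases before the annotated start to 50 bases after it. The CCAAT motif, searched on both strands, was in 24 of the 32 (75.0%), against 42.0% of 14452 genes with a window. The cell cycle homology region, TTTGAA on either strand, was also in 24 (75.0%), against 15.7% of all genes. Its variant TTCGAA, which reads the same on both strands, was in 4 (12.5%), against 2.23%. CCAAT together with either form was in 22 (68.8%), against 7.05%, and 15 members (46.9%) held at least 2 copies of CCAAT, against 14.9%. The 120 bases before the start held both CCAAT and TTTGAA or TTCGAA in 8 members. Those of 4 of these 8 members are given below 5′ to 3′ on the strand of the gene. They were picked for holding both and do not stand for the whole list. Capitals mark the matches, and ATTGG and TTCAAA are CCAAT and TTTGAA on the opposite strand.
Cdk1 (chr10:69352913-69353032, minus strand): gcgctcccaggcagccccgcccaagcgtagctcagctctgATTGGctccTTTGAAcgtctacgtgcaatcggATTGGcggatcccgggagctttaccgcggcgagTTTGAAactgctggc
Cdc20 (chr4:118437344-118437463, minus strand): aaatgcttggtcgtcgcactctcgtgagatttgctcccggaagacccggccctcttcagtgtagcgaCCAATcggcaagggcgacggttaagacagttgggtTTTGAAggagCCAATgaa
Ube2c (chr2:164769809-164769928, plus strand): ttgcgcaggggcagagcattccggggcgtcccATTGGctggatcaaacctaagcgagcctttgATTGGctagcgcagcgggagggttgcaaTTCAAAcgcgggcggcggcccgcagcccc
Kif11 (chr19:37376262-37376381, plus strand): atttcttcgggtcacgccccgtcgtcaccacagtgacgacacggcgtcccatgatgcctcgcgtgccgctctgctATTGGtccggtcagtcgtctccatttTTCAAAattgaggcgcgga

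Cdk1, Cdc20 and Ube2c each held 2 copies of CCAAT in this stretch and Kif11 held 1. Over the 34 windows of the 32 members there were 58 matches of CCAAT, at a median of 66.5 bases before the start, and 39 of the homology region, at a median of 2 bases after it. Ect2 and Prc1 have overlapping windows, and sites that lie in more than 1 window are counted in each. A match is a description of letters and does not show that a factor binds there.

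**Figure D1:**
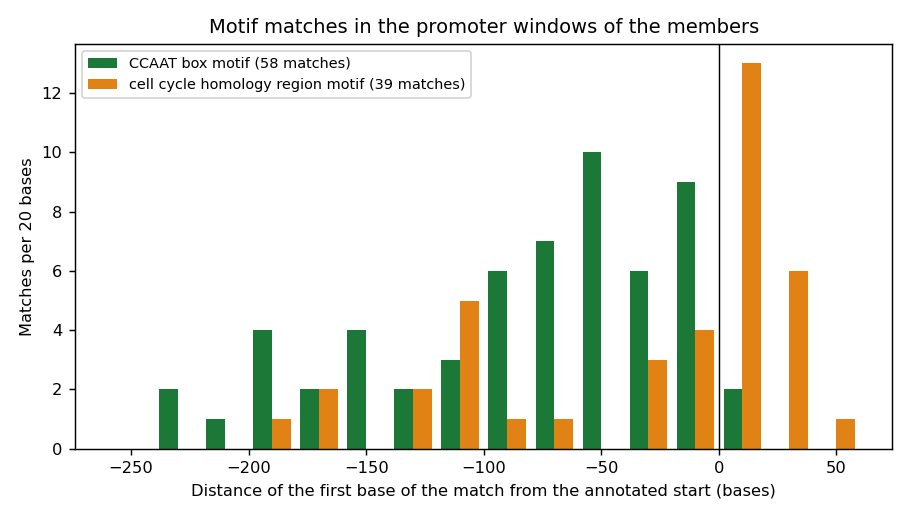
Number of motif matches (vertical axis, per 20 bases) by distance of their first base from the annotated start (horizontal axis, bases) in the 34 promoter windows of the 32 members. The CCAAT matches (green, 58) lie mostly before the start, and those of the cell cycle homology region (orange, 39) centre on it. Sites in the overlapping windows of Ect2 and of Prc1 are counted in each window.

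The arrays themselves were checked first. Selenof, the gene of Sep15, was between 8.02 and 8.29 (log2 signal) in the shSep15 arrays and between 7.34 and 7.86 in the shTR1/shSep15 arrays, against 10.78 to 11.57 in control. Txnrd1, the gene of TR1, was 7.85, 10.57, 7.89 and 9.71 in shTR1 replicates 1 to 4, against 9.45 to 10.39 in control and 7.18 to 7.91 in shTR1/shSep15. The libraries labelled shTR1 replicates 2 and 4 thus lay within or above the control range, so each comparison with shTR1 is also given without them, an alternative chosen after the data were seen. The difference between the 3′ and 5′ control probe sets of actin, a sign of RNA quality, was 0.38 to 0.79 and highest in control replicate 2. That of Gapdh was -0.203 to 0.029 and highest in shTR1 replicate 1, with -0.113 in control replicate 2. Markers of endothelium (6 genes) averaged 3.66 to 3.91 and those of leukocytes (7 genes) 4.10 to 5.01 over the arrays. Of the leukocyte markers, Ptprc was 2.42 to 3.09 and Cd3e 5.12 to 5.83. Cd68, a lysosomal protein of macrophages, stood apart from them at 9.04, 8.66, 5.83 and 9.07 in shTR1, 6.55 to 6.97 in shTR1/shSep15, 4.69 to 6.53 in control and 4.38 to 5.58 in shSep15. It was lower in shSep15 than in shTR1 by -3.01 ± 0.60 (limma, adjusted p = 0.0354), and its part in the values of the members was not tested. The 7 epithelial markers averaged 4.12 to 4.30 in shSep15 and 4.79 to 5.59 in the other lines, and the 7 fibroblast and mesenchymal markers averaged 6.74 to 8.52.

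The 40 genes moved as a block from array to array, and in 2 of the lines the arrays split widely. The mean of the members was 9.28, 7.45, 7.68 and 9.17 in control replicates 1 to 4. It was 7.63, 9.14, 8.85 and 7.94 in shTR1 replicates 1 to 4. It was 8.29, 8.03, 8.29 and 8.44 in shSep15, and 9.13, 8.99, 9.17 and 8.94 in shTR1/shSep15. Control and shTR1 thus held arrays at both ends of the scale, ranging over 1.83 and 1.51, whereas shSep15 and shTR1/shSep15 ranged over 0.41 and 0.23. Control replicates 1 and 4 lay above replicates 2 and 3 in 40 of 40 members, an order found in 16.7% of all genes. In shTR1, replicates 2 and 3 lay above 1 and 4 in 39 of 40, against 17.8% of all genes. These are not the shTR1 arrays set apart by Txnrd1, which were 2 and 4.

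**Figure D2:**
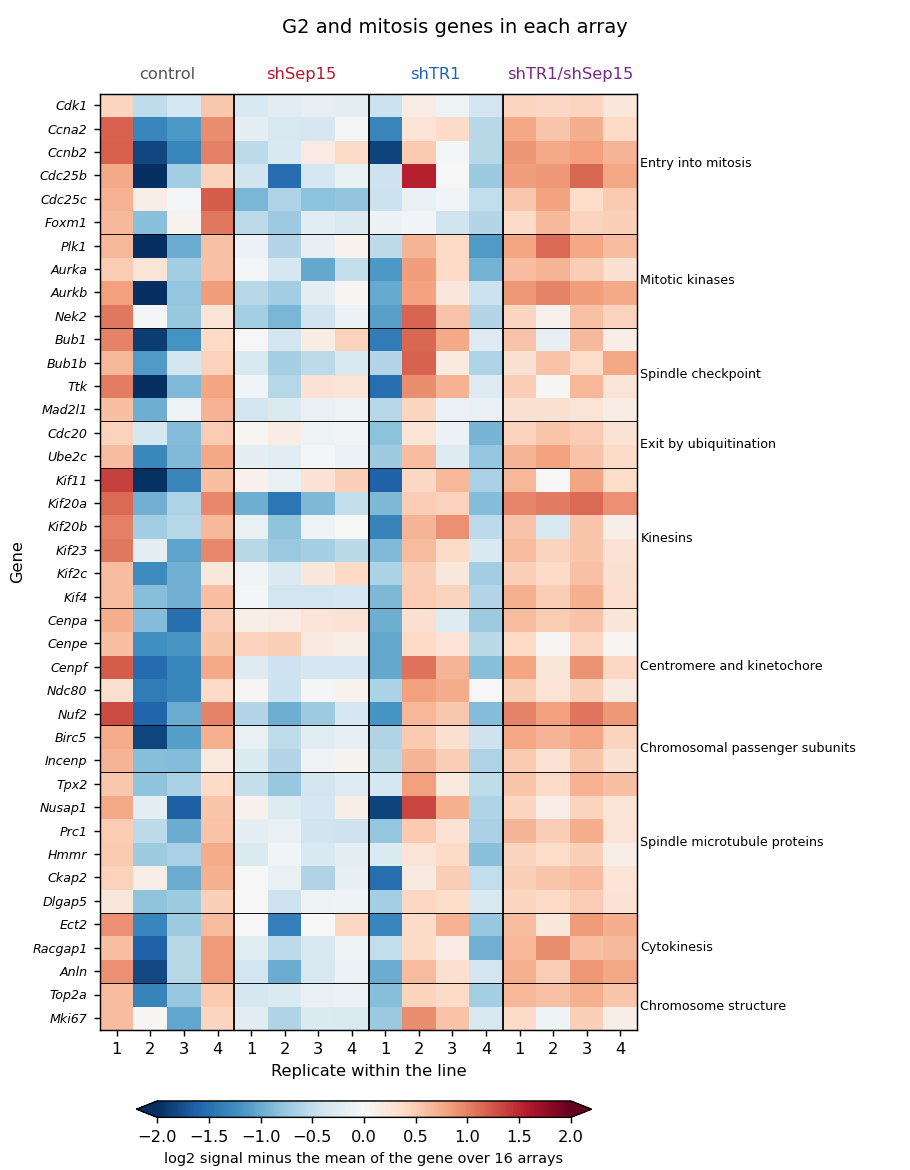
Log2 signal of each of the 40 genes (rows, grouped by role) in each of the 16 arrays (columns, by line and replicate), minus the mean of the gene over all arrays; red is above and blue below that mean, and the colour stops at 2 in either direction. Control replicates 1 and 4, shTR1 replicates 2 and 3 and all shTR1/shSep15 arrays are mostly red, and control replicates 2 and 3 and shTR1 replicates 1 and 4 are mostly blue.

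The spread within a line shows the same split gene by gene. The median SD of the members was 1.00 in control (range 0.54 to 1.62) and 0.72 in shTR1, against 0.29 and 0.22 over all genes. In shSep15 and shTR1/shSep15 it was 0.22 and 0.16, against 0.19 and 0.17. An SD above 0.5 was found in 40 members in control, 36 in shTR1, 2 in shSep15 and 0 in shTR1/shSep15, against 22.7%, 12.1%, 6.03% and 3.73% of all genes. Brighter genes varied more. Over the 6496 genes at least as bright as the dimmest member, the median SD was 0.44 in control, 0.32 in shTR1, 0.23 in shSep15 and 0.18 in shTR1/shSep15. An SD above 0.5 was found in 42.0%, 20.04%, 8.96% and 5.496% of them. The residual SD of the fit was highest for Kif11 (0.97), the motor that pushes the spindle poles apart, Ttk (0.96), a checkpoint kinase, and Ccnb2 (0.95), cyclin B2. Kif11 was 8.50, 5.17, 5.83 and 7.74 in control, 5.53, 7.55, 7.81 and 6.49 in shTR1, 6.99 to 7.62 in shSep15 and 7.15 to 7.94 in shTR1/shSep15. Ttk was 8.24, 5.08, 6.33 and 8.01 in control, 5.71, 8.15, 7.92 and 6.95 in shTR1, 6.64 to 7.50 in shSep15 and 7.24 to 7.88 in shTR1/shSep15. Both had their lowest array in control replicate 2. The residual SD was lowest for Cdk1 (0.31), Cdc25c (0.32) and Dlgap5 (0.43), a spindle protein.

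The S-phase genes and the other mitosis genes were high and low in the same arrays, and the G1 genes were not. The 49 S-phase genes averaged 8.69, 7.13, 7.70 and 8.45 in control and 7.63, 8.76, 8.55 and 7.998 in shTR1. The 58 other mitosis genes averaged 7.93, 6.73, 6.81 and 7.63 in control and 6.84, 7.997, 7.73 and 7.11 in shTR1. The 16 G1 cyclins and Cdk inhibitors averaged 7.97, 7.59, 7.75 and 7.72 in control and 7.83, 8.01, 7.80 and 8.08 in shTR1. The 17 targets of p53, which includes the Cdk inhibitor gene Cdkn1a, ran the other way in control, at 7.38, 9.67, 8.20 and 7.13. Cdkn1a itself was 10.03, 12.62, 11.70 and 10.05 there. In shTR1 the p53 targets spanned less, at 7.75, 7.70, 7.58 and 8.09. The part of the p53 targets, or of the 3′ to 5′ actin difference of control replicate 2, in the values of the members was not tested.

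**Figure D3:**
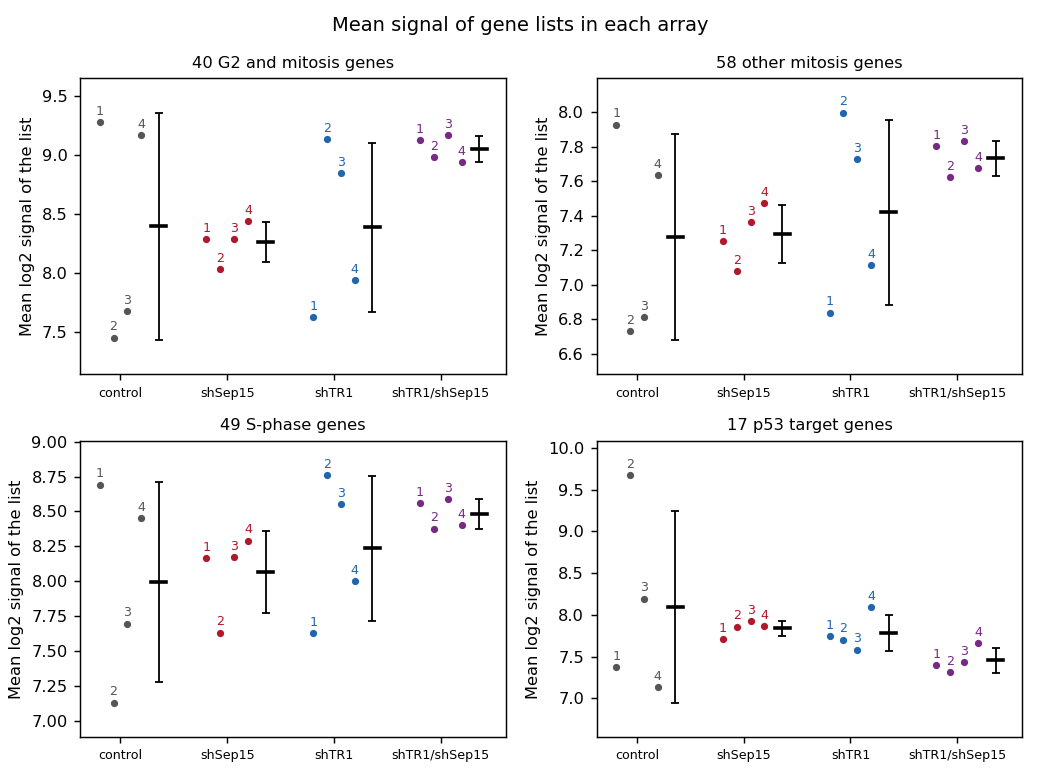
Mean log2 signal of 4 gene lists (vertical axis) in each array, by line; points carry the replicate number, and the bar and whiskers are the mean and SD over the 4 arrays. In control, replicates 1 and 4 are high and 2 and 3 low for the first 3 lists, and the p53 targets run in the opposite order.

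Over the 16 arrays a member correlated with the mean of the other 39 at a median Pearson r of 0.90 (lowest 0.58, Cdc25c; highest 0.98), against a median of -0.11 for the other 18153 genes. Within lines, after removing each line's mean, the median was 0.93. The points share arrays and their scaling, and lines and replicates are mixed in them. The genes outside the list with the highest r were Psmc3ip (0.98), Tmpo (0.98), Sgo1 (0.98), Lbr (0.97), Ncaph (0.97), Mcm6 (0.97), Ncapg (0.96), Timeless (0.96), Tubgcp4 (0.96) and Sapcd2 (0.95). Sgo1 guards sister chromatid cohesion, Ncaph and Ncapg are condensin subunits, and Mcm6 is part of the replicative helicase.

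The first comparison is of shSep15 with control. In shSep15 cells 1 of 40 members fell, Cdc25c, and none rose, where 1.97% of all 45037 probe sets passed the same test (limma, adjusted p under 0.05 over all probe sets). Cdc25c is a phosphatase that activates Cdk1. It was 7.84, 7.27, 7.12 and 8.35 in control and 6.23, 6.52, 6.32 and 6.35 in shSep15. All 4 shSep15 arrays lay below all 4 control arrays, which 2.48% of probe sets did. The difference was -1.29 ± 0.21 (log2, SE), a 2.45-fold fall (adjusted p = 0.00591). With only the arrays of these 2 lines in the fit it was the same and its adjusted p was 0.0759. A second probe set of Cdc25c differed by -1.24.

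The rest of the list lay on both sides of control. Of the 40, 24 were lower and 16 higher, with a median of -0.13 against -0.02 over all genes. The next members by p were Kif20a, a kinesin of cytokinesis (-1.08 ± 0.45, adjusted p = 0.318), and Foxm1, a transcription factor of G2 genes (-0.67 ± 0.29, adjusted p = 0.345). Kif20a was 9.16, 7.06, 7.42 and 8.997 in control and 7.06, 6.58, 7.13 and 7.56 in shSep15, so that its shSep15 arrays lay at the level of the low control arrays. The largest positive difference was that of Cenpe, a kinetochore motor (0.62 ± 0.41, adjusted p = 0.596). Its shSep15 arrays, 8.88, 8.90, 8.60 and 8.56, lay between the low control arrays at 7.20 and 7.26 and the high ones at 9.02 and 8.99. At an unadjusted p under 0.05 there were 3 lower members, where 4.75% of probe sets were lower, and 0 higher. Without control replicate 2, the count past the adjusted threshold was 2 instead of 1, where 2.61% of probe sets passed, and the median was -0.39. Without control replicate 1 or 4 the median was 0.19 or 0.13, above 0.

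The second comparison, shTR1 against control, found 0 of 40 members past the threshold, where 0.18% of all probe sets passed (limma), and 1 was lower at an unadjusted p under 0.05, where 4.79% of probe sets were. The ANOVA of the methods with Benjamini-Hochberg adjustment also found 0. Equal numbers lay above and below control, 20 and 20, with a median of -0.02 against -0.03 over all genes. The smallest p was again that of Cdc25c, which was 6.71, 6.99, 7.08 and 6.65 in shTR1, all below the 4 control arrays, as were 1.71% of probe sets. The difference was -0.79 ± 0.21 (adjusted p = 0.159). Ndc80, an outer kinetochore subunit, differed by 0.74 ± 0.40 (adjusted p = 0.470) and Foxm1 by -0.53 ± 0.29 (adjusted p = 0.482). For Ndc80 both lines spanned over 1 unit, 5.37 to 7.16 in control and 6.14 to 7.60 in shTR1. Without shTR1 replicates 2 and 4, 0 members passed, where 0.0444% of probe sets did, and the median was -0.14. Leaving out single arrays put it on either side of 0, from -0.33 without control replicate 2 to 0.28 without control replicate 1.

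In shTR1/shSep15 against control all 40 members had a higher mean and 0 passed the threshold, where 0.0244% of all probe sets did (limma); the ANOVA with adjustment also found 0. At an unadjusted p under 0.05 there were 8, all higher, where 4.52% of probe sets were higher. The differences ran from 0.06 (Cdc25c) to 1.31 (Cdc25b), with a median of 0.70 against 0.01 over all genes. Without control replicate 2 or 3 the median was 0.41 or 0.44. Plk1, the polo-like kinase, had the smallest p. It was 9.13, 6.29, 7.48 and 9.06 in control and 9.26, 9.61, 9.24 and 9.09 in shTR1/shSep15. The knockdown arrays lay at the level of control replicates 1 and 4 and above replicates 2 and 3, and the means differed by 1.31 ± 0.53 (adjusted p = 0.546). Cdc25b, a second Cdk1-activating phosphatase, was 8.22, 5.36, 6.77 and 7.91 in control and 8.31, 8.33, 8.62 and 8.25 in shTR1/shSep15. It was the 1 member whose shTR1/shSep15 arrays all lay above all control arrays, which 3.12% of probe sets did (1.31 ± 0.57, adjusted p = 0.586). Top2a, topoisomerase II alpha, was 10.23, 8.27, 8.86 and 10.14 in control and 10.17 to 10.33 in shTR1/shSep15 (0.88 ± 0.39, adjusted p = 0.587).

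**Figure D4:**
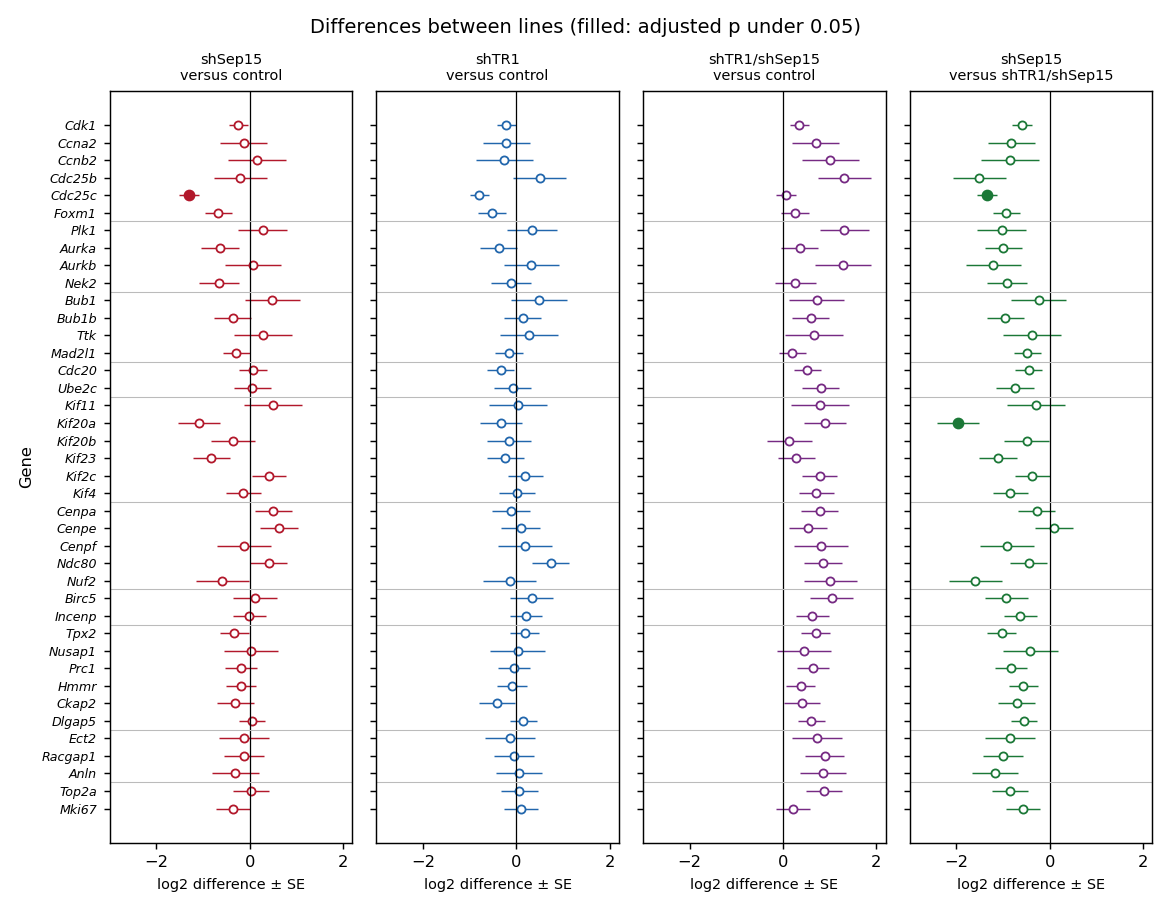
Log2 difference (horizontal axis) with its SE for each of the 40 genes (vertical axis, in order of role) in 4 comparisons; filled points have an adjusted p under 0.05. Cdc25c is filled in shSep15 against control, and Cdc25c and Kif20a in shSep15 against shTR1/shSep15, where all members but Cenpe lie left of 0.

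The clearest separation was between shSep15 and shTR1/shSep15, the 2 lines that both carry the Sep15 hairpin and whose arrays lay close together. The mean of the members was 8.26 in shSep15 and 9.06 in shTR1/shSep15. Single arrays ranged more widely than this gap within control (1.83) and within shTR1 (1.51). The members also moved as a block, so counts of members are not counts of independent results. A lower mean in shSep15 was found for 39 of 40 members, with a median of -0.84 against -0.03 over all genes. In the fit of all 16 arrays 2 members fell, Cdc25c and Kif20a, where 2.66% of all probe sets passed (limma), and 15 were lower at an unadjusted p under 0.05, where 5.6% of probe sets were. In the fit of the 8 arrays of these lines alone, 30 of 40 passed, all lower, where 8.33% of all probe sets did. The spread shared over 4 lines includes that of control and shTR1, and the 2 fits differ only in which arrays give it. Arrays of these 2 lines with the same replicate number deviated together. With the number as a block, 1 member, Cdc25c, passed in the fit of 16 arrays (2.17% of probe sets) and 33 in that of 8 (12.9%). In the fit of 16 arrays the block was shared by all 4 lines, whose numbers did not all deviate together. All 4 shSep15 arrays lay below all 4 shTR1/shSep15 arrays in 32 of 40 members, against 7.11% of all probe sets. For any 1 gene so separated the two-sided exact permutation p is 0.0286, which is the lowest possible with 4 against 4 arrays.

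Kif20a showed the largest difference of the list. It was 7.06, 6.58, 7.13 and 7.56 in shSep15 and 9.01, 9.07, 9.17 and 8.95 in shTR1/shSep15, a difference of -1.97 ± 0.45 or 3.92-fold (adjusted p = 0.0300). Leaving out any of the 8 arrays raised its adjusted p to between 0.0529 and 0.0847, and with the replicate number as a block it was 0.0698. In the fit of the 8 arrays with the block it was 0.00105. Cdc25c was 7.68, 7.95, 7.52 and 7.67 in shTR1/shSep15, and shSep15 was lower by -1.35 ± 0.21 (adjusted p = 0.00380). Tpx2, which activates Aurora A on the spindle, was 8.44, 8.14, 8.54 and 8.65 in shSep15 and 9.47, 9.28, 9.61 and 9.51 in shTR1/shSep15 (-1.02 ± 0.31, adjusted p = 0.108).

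Ordered by role, the separation was found in all 6 genes of entry into mitosis and in all 4 mitotic kinases. In the fit of the 8 arrays, Cdk1 was lower by -0.59 ± 0.09 (adjusted p = 0.00363), Foxm1 by -0.93 ± 0.13 (adjusted p = 0.00282) and Plk1 by -1.03 ± 0.16 (adjusted p = 0.00470). Cdk1 was 10.49, 10.58, 10.63 and 10.61 in shSep15 and 11.22, 11.21, 11.22 and 11.02 in shTR1/shSep15. Both genes of exit by ubiquitination separated: Cdc20, the activator of the anaphase-promoting complex, was 10.83 to 11.09 against 11.23 to 11.49, and Ube2c, its ubiquitin-conjugating enzyme, 10.80 to 10.98 against 11.39 to 11.82. So did both chromosomal passenger subunits, Birc5 (survivin) and Incenp, all 6 spindle microtubule proteins, and both genes of chromosome structure.

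The other roles were divided. The separation was found in 2 of 4 checkpoint genes, 3 of 6 kinesins, 3 of 5 centromere and kinetochore genes and 2 of 3 cytokinesis genes. Nuf2, a partner of Ndc80 in the kinetochore, was 6.86, 6.47, 6.73 and 7.12 in shSep15 and 8.44, 8.28, 8.52 and 8.32 in shTR1/shSep15 (-1.60 ± 0.14 in the fit of the 8 arrays, adjusted p = 0.000271). Kif23, a kinesin of the central spindle, differed by -1.11 ± 0.10 in that fit (adjusted p = 0.000407). The 8 members whose arrays overlapped were Bub1, Ttk, Kif11, Kif20b, Kif2c, Cenpa, Cenpe and Ect2. Cenpe was 8.56 to 8.90 in shSep15 and 8.45 to 8.84 in shTR1/shSep15 (0.09 ± 0.41, 95% interval -0.78 to 0.97). A second probe set of Cenpe differed by 1.10, outside that interval.

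**Figure D5:**
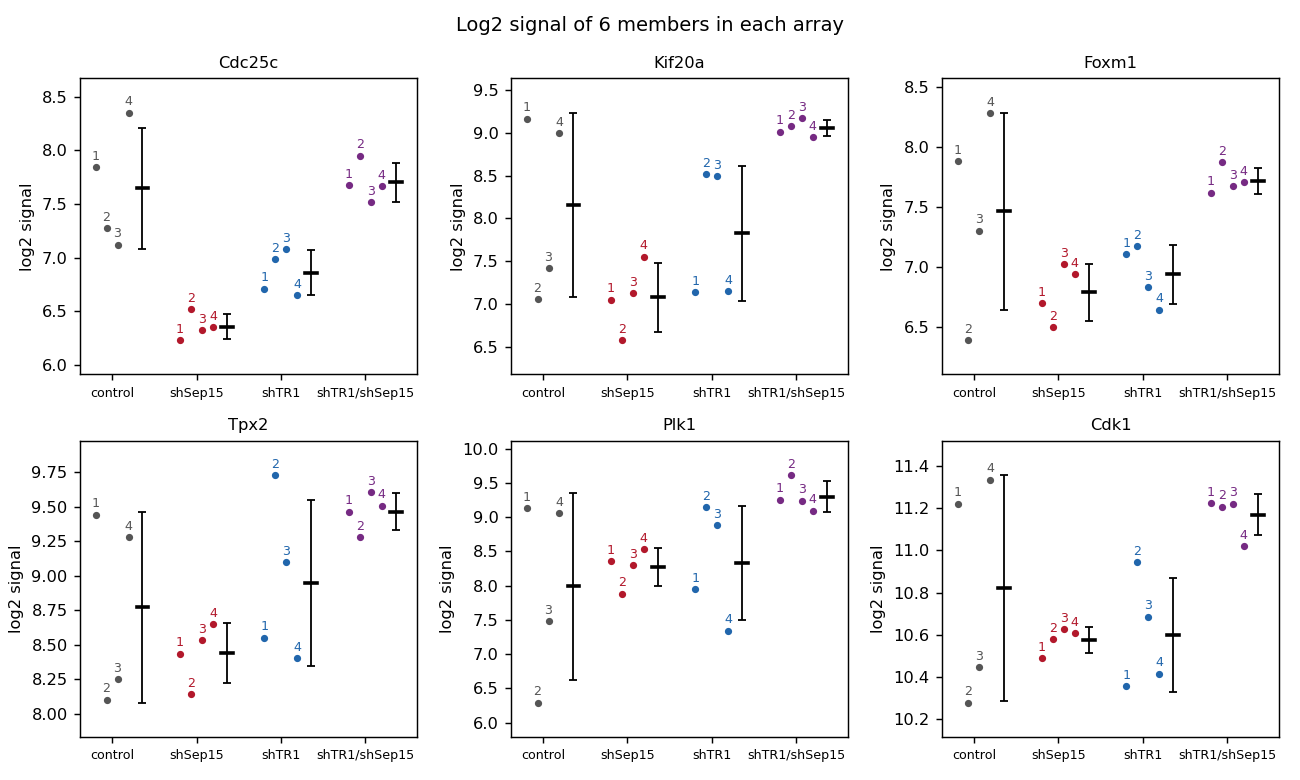
Log2 signal (vertical axis) of 6 members in each array, by line; points carry the replicate number, and the bar and whiskers are the mean and SD over the 4 arrays. For each of the 6 genes the shSep15 arrays lie below the shTR1/shSep15 arrays, while control and, for all but Cdc25c and Foxm1, shTR1 span much of the scale.

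shTR1 was also lower than shTR1/shSep15 on average, in 40 of 40 members, with a median of -0.70 against -0.05 over all genes. None passed the threshold, where 0.0733% of probe sets did (limma), and 8 were lower at an unadjusted p under 0.05, where 4.03% of probe sets were; the ANOVA with adjustment also found 0. The arrays did not overlap in 10 of 40, against 3.41% of probe sets. The smallest p belonged to Cdc25c (-0.85 ± 0.21, adjusted p = 0.164), Cdc20 (-0.86 ± 0.29, adjusted p = 0.300) and Cdk1 (-0.57 ± 0.20, adjusted p = 0.331). Cdc20 was 10.12, 11.21, 10.81 and 9.999 in shTR1, of which replicate 2 came closest to the shTR1/shSep15 arrays. Without shTR1 replicates 2 and 4 the median was -0.80 and 0 members passed, where 0.0266% of probe sets did. Without shTR1 replicate 1 the median was -0.44.

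The single knockdowns differed less from each other. Between shSep15 and shTR1, 0 of 40 members passed, where 0.648% of probe sets did (limma), and 1 was lower in shSep15 at an unadjusted p under 0.05, where 4.16% were; the ANOVA with adjustment also found 0. Cdc25c was the 1 member whose shSep15 arrays all lay below the shTR1 arrays, as 3.04% of probe sets did. The smallest p were those of Cdc25c (-0.50 ± 0.21, adjusted p = 0.550), Kif20a (-0.75 ± 0.45, adjusted p = 0.821) and Tpx2 (-0.50 ± 0.31, adjusted p = 0.835). Without shTR1 replicates 2 and 4, 0 members passed, where 0.546% of probe sets did, and the median was -0.05. Without shTR1 replicate 2 or 3 it was 0.07 or 0.03, above 0.

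The last comparison asks whether both hairpins together gave the sum of each alone. The non-additivity (both hairpins minus shSep15 minus shTR1 plus control) was positive in 37 of 40 members, with a median of 0.82 against 0.07 over all genes. It passed for 1 member, Cdc25c, at 2.14 ± 0.30 (adjusted p = 0.00250), where 2.85% of probe sets passed (limma). At an unadjusted p under 0.05 it was above 0 in 7, where 6.51% of probe sets were. The mean of Cdc25c was below control in each single knockdown, past the threshold in shSep15, and differed from control by 0.06 ± 0.21 with both hairpins (adjusted p = 0.979). Kif20a (2.30 ± 0.64, adjusted p = 0.0710) and Foxm1 (1.45 ± 0.41, adjusted p = 0.0788) had the next smallest p. Without control replicate 2 the count was 4 instead of 1, where 5.2% of probe sets passed instead of 2.85%. Without shTR1 replicates 2 and 4 it was 1, where 1.15% passed, with a median of 0.91. The test of any difference among the 4 lines also called Cdc25c alone (adjusted p = 0.00630), where 2.33% of probe sets passed, and called 3 members without control replicate 2, where 4.09% passed.

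Further lists of cell cycle genes were read in the same way. Between shSep15 and shTR1/shSep15, where 637 of all 18193 genes (3.50%) passed, 49 of 58 other mitosis genes were lower in shSep15 (median -0.48), and 1 passed, Lmnb1, a nuclear lamin (-1.42 ± 0.30, adjusted p = 0.0218). Of 49 S-phase genes 41 were lower (median -0.45) and 1 passed, E2f1, a transcription factor of S-phase genes (-1.04 ± 0.22, adjusted p = 0.0195). In the fit of the 8 arrays 22 of the other mitosis genes and 14 of the S-phase genes passed, where 8.33% of all probe sets did. At an unadjusted p under 0.05 in the fit of 16 arrays, 9 of the other mitosis genes and 10 of the S-phase genes were lower and 0 and 1 higher, where 1306 of all genes were lower and 1510 higher. Of 16 genes of the anaphase-promoting complex, 16 of condensin and cohesin, 11 of MuvB, Myb and pocket protein regulators, 16 G1 cyclins and Cdk inhibitors and 17 p53 targets, 0 passed in that comparison (limma), and at that unadjusted threshold there were 2, 1, 2, 2 and 0 lower and 1, 0, 0, 2 and 3 higher. The non-additivity passed for Lmnb1 and Troap, 2 of the 58 other mitosis genes, where 692 of all 18193 genes (3.80%) passed. It also passed for Ube2s, a ubiquitin-conjugating enzyme, 1 of the 16 genes of the anaphase-promoting complex. Between shSep15 and shTR1, 1 of these 16 passed, the subunit Anapc7 (-0.56 ± 0.12, limma adjusted p = 0.04996), where 172 of all genes (0.945%) did.

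Of the 40 genes, 26 are covered by more than 1 probe set, and the 50 further probe sets had the sign of the chosen one in 46 cases for shSep15 against shTR1/shSep15 and in 43 for shTR1 against shTR1/shSep15. A shared sign did not mean a like size, as for Cenpe above. For Kif20b a further probe set differed by 0.85 between shSep15 and shTR1/shSep15, where the chosen one differed by -0.50. Against control the sign was shared by 35 in shSep15, 28 in shTR1 and 34 in shTR1/shSep15.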

How the data were processed

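RNA of 16 samples, 4 of each line, was measured on Affymetrix mouse arrays. The authors processed the arrays with the RMA algorithm (no version is given) and deposited log2 signals per probe set, used here as deposited. They hold no counts or depth, so the number of arrays, 4 for each line, sets the precision. Of 45101 probe sets, 64 manufacturer controls were left out and 45037 tested. A single gene symbol was annotated to 34945, more than 1 to 932 and no symbol to 9160; gene numbers served to update 34741 of them. Arrays were grouped by their labels. A linear model with a mean per line was fitted in limma 3.58.1 under R 4.3.3 and moderated (12 residual and 2.58 prior degrees of freedom), and p-values were adjusted by Benjamini-Hochberg over all probe sets tested. The fit was tested on simulated data in which probe sets were independent and each had the same SD in all 4 lines. Neither holds for the members, so that test does not cover genes that move together or lines that differ in spread. Promoter windows came from RefSeq (GRCm38.p6). Figures used Python 3.11.15 and matplotlib 3.10.9.

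Genes named were members with an adjusted p under 0.05 or, where under 3 passed, the 3 with the smallest p, plus the members with the largest difference from control in a role and those with the highest and lowest residual SD; Nuf2, Kif23, Birc5, Incenp, Cdkn1a and those listed as overlapping were named after their values were seen. The members and lists were chosen with earlier results of these data known. Alternatives were array scaling, array weights, an intensity trend, a brightness filter, a fold criterion, the mean over probe sets, only the lines compared, a replicate block, the ANOVA of the methods and leaving out arrays. Replicate numbers came from the labels. Deviations of same-numbered arrays from the line means correlated above 0.1 in all 4 pairs of shSep15 with shTR1/shSep15 (r 0.14 to 0.49) and were below 0.1 in at least 1 pair of each other 2 lines, so only that comparison was taken as paired. Some genes of the other cell cycle and marker lists were not analysed here.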

Additional observations from a re-analysis of the deposited data

Results flagged for a closer look

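Between lines with and without the Sep15 hairpin, the difference in Cdc25c was not the same with and without the TR1 hairpin. These differences lay 2.14 apart on the log2 scale, by the interaction term of the limma fit (adjusted p = 0.00250). Cdc25c lay below control in 4 of 4 shSep15 arrays and within the control range in 4 of 4 shTR1/shSep15 arrays. The authors describe several independent cell clones, but not which of them gave these arrays. Hairpin and line thus cannot be told apart. The term includes shTR1 replicates 2 and 4, where Txnrd1 was 10.57 and 9.71, above or within the control range.

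Single arrays stood apart from the other 3 of their line for 3 members. Cdk1 was 11.02 in shTR1/shSep15 replicate 4, against 11.21 to 11.22 in the others. Kif4 was 7.26 in shSep15 replicate 1, against 6.91 to 6.97. Birc5 was 9.27 in shSep15 replicate 2, against 9.56 to 9.62. These are 3 of 164 groups of 4 arrays examined (1.83%), and chance alone gives about 1 in 20.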

How the results depend on the processing

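Of 435 values of named members recomputed under the alternatives, 400 kept their direction and side of the threshold, 11 lost significance, 24 gained it and 0 changed direction. In the main fit only Cdc25c and Kif20a were past the threshold, so most of the 400 kept their side by staying short of it. Counts of members past the threshold moved as follows, each with the percentage of all probe sets tested in parentheses. When the fit held the arrays of the compared lines alone, shSep15 against control gave 0 (0.766%) and shSep15 against shTR1/shSep15 gave 30 (8.33%), or 33 (12.9%) with the replicate block, an alternative chosen after seeing the data. With array weights the counts were 2 (5.81%) for shSep15 against control, 18 (12.3%) for shSep15 against shTR1/shSep15, 1 (2.41%) for shTR1 against shTR1/shSep15, 4 (9.91%) for non-additivity and 6 (11.5%) for any difference. The methods' ANOVA gave 1 (1.64%) for shSep15 against shTR1/shSep15 after Benjamini-Hochberg. At an unadjusted p under 0.05 it gave 2 (12.2%), 1 (11.2%) and 1 (7.48%) for shSep15, shTR1 and shTR1/shSep15 against control, 11 (12.6%) and 5 (9.63%) for shSep15 and shTR1 against shTR1/shSep15, 1 (7.6%) for shSep15 against shTR1, 5 (15.4%) for non-additivity and 3 (13.3%) for any difference. Non-additivity gave 2 (6.33%) with bright probe sets alone, 3 (2.66%) after further quantile normalization and 2 (4.78% of genes) with the mean over all probe sets of a gene. Leaving out 1 array gave 1 to 2 for shSep15 against control, 1 to 1 for shSep15 against shTR1/shSep15, 1 to 4 for non-additivity and 1 to 3 for any difference, the upper values without control replicate 2 (2.61%, 5.2% and 4.09%). The range of the member mean in shSep15 was 0.20 after further quantile normalization, against 0.41. The cause of these changes was not tested, apart from the arrays and probe sets that an alternative leaves out. With the replicate number as a block, shSep15 against shTR1/shSep15, the comparison that the numbers pair, gave 1 member (2.17%), and the adjusted p of Kif20a there was 0.0698. The block moved no other count of members. Over all lines r ran from -0.47 to 0.49 and was above 0.1 in 8 of 24 pairs. Leaving out shTR1 replicates 2 and 4, chosen after seeing the data, gave 0 for each comparison with shTR1 and 1 (1.15%) for non-additivity.

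The median difference of the members kept its sign in all alternatives for shTR1/shSep15 against control (0.41 to 1.02), shSep15 against shTR1/shSep15 (-0.87 to -0.63), shTR1 against shTR1/shSep15 (-0.90 to -0.44) and non-additivity (0.55 to 1.08). It lay on both sides of 0 for shSep15 against control (-0.39 to 0.19), shTR1 against control (-0.33 to 0.28) and shSep15 against shTR1 (-0.40 to 0.07).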

Other observations

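Kif20a and Cdc25c, the members past the threshold between shSep15 and shTR1/shSep15, lie near each other on chromosome 18. Of the other 50 genes within 2 Mb of Kif20a, 6 passed in that comparison (median -0.20) and 4 in shSep15 against control (median -0.26). Of the other 457 genes of chromosome 18, 28 and 25 passed (medians -0.07 and -0.10), and of all 18193 genes 637 and 495 (medians -0.03 and -0.02). Lmnb1 is also on chromosome 18. The window was chosen after the values were seen, and no test was made of it.

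Outside the list, the epithelial keratin Krt20 fell in shSep15 against control (-3.28 ± 0.45, limma adjusted p = 0.00155), as did Krt18 (-2.68 ± 0.62, adjusted p = 0.0390). All 7 epithelial markers had a lower mean there, by -3.28 to -0.03 with a median of -0.14, and only Krt20 and Krt18 passed the threshold. The 7 fibroblast and mesenchymal markers were divided, 3 higher and 4 lower. Of these the collagen gene Col3a1 fell (-3.04 ± 0.67, adjusted p = 0.0307), and the receptor gene Pdgfra differed by 1.29 ± 0.40 (adjusted p = 0.132). The collagen gene Col1a2 was 11.82, 10.12, 11.43 and 11.82 in control and 11.30, 11.999, 12.16 and 12.09 in shSep15. Their part in the differences of the mitosis genes was not tested.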
